A study of Mus musculus with 8 samples.

Results

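The genes described here are 10 members of the circadian clock and its output. They are the PAR bZIP activators Dbp, Tef and Hlf, their repressor Nfil3, the period genes Per1, Per2 and Per3, the cryptochrome genes Cry1 and Cry2, and the activator gene Clock. Every probe set whose gene symbol in the array's annotation is one of these names was taken, which gave 24 probe sets of 45037. The series holds 18193 genes in all when each is represented by its probe set of highest mean. Dbp was selected on its measured value, which was low in the null arrays, so its difference between null and wild type is described without a test. The other 9 genes were chosen as its relatives, not for their values, although results of these data were known at the time.

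RNA came from striatum of BALB/c mice at postnatal day 0, taken as punches 500 µm wide from coronal slices of 300 µm. There were 4 Ctip2 null mutant mice, 1 Ctip2 heterozygote and 3 wild type mice, each on its own Affymetrix array. Ctip2, called Bcl11b in current gene tables, is a DNA-binding zinc finger protein made by medium spiny neurons, the projection neurons that fill most of the striatum. The comparison asks how gene expression differs in striatum that lacks this factor. The deleted part of the gene and the hour of collection were not given, so all values stand for a single age and an unknown clock time.

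In the mammalian clock, CLOCK and its partner BMAL1 activate genes through E-box elements, and PER and CRY proteins accumulate and inhibit that activation. Dbp is among the direct E-box targets and has a strong daily rhythm in many adult tissues. DBP, TEF and HLF then activate further genes through D-box elements, to which NFIL3 binds as a repressor. In rodents, daily rhythms of clock transcripts outside the central clock of the hypothalamus mature after birth.

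Bases upstream of the outermost annotated start were read for Dbp, whose level differed most, for Tef and Cry1, the other members whose 95% interval of the difference did not include 0, and for Per3, where D-box letters were found. Capitals mark an E-box (CACGTG) or a D-box (TTATGTAA). Sequences are 5′ to 3′ on the gene's strand, from RefSeq, build GRCm38.p6, and lie at chr7:45704997-45705099, plus strand for Dbp, chr15:81802423-81802672, plus strand for Tef, chr10:85185055-85185304, minus strand for Cry1 and chr4:151044708-151044915, minus strand for Per3.
Dbp: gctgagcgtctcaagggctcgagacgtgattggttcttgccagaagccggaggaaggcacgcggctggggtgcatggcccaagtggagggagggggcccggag
Tef: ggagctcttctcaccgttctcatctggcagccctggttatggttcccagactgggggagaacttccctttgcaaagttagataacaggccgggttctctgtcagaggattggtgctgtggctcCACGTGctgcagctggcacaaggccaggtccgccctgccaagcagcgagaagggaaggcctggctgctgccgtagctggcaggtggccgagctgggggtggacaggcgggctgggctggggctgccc
Cry1: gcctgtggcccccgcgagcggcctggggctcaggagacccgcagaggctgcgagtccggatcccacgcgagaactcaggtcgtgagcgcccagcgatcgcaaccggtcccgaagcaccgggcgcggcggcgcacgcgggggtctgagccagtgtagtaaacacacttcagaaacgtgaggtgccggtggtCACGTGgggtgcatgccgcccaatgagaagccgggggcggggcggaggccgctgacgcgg
Per3: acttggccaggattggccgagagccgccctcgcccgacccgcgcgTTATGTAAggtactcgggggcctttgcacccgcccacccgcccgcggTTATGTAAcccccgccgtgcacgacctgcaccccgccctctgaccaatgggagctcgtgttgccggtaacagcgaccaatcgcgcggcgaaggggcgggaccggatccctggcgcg

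Both strands of windows reaching from 250 bases before to 50 after a start were searched, with no overlap between the motifs found. The table matched 9 of the 10 genes, with 13 windows. CACGTG was found in 4 of these windows, those of Tef, Cry1 and Per1, and in 7.15% of all 32851 windows of this length. TTATGTAA occurred in the single Per3 window, with its first base at -205 and again at -158 from the start, against 0.938% of all windows. The related letters TTACGTAA were in 0 of the 13 windows and in 0.119% of all windows. The cyclic AMP element TGACGTCA was in the window of Hlf and in 1.79% of all windows. The Dbp window held none of these letters.

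Bcl11b was lower in null than in wild type arrays on all 4 of its probe sets, with adjusted p from limma between 0.0011 and 0.0152. The call on the probe set of highest mean was lost without wild type 3 (adjusted p = 0.0563) and without wild type 1 and null 2 together (0.0695). Of 7 measured marker genes of medium spiny neurons 4 were called lower in null arrays (Bcl11b itself, Ppp1r1b, Drd1 and Pde10a) and 0 higher, by their probe set of highest mean. Over all genes 0.676% were called lower and 2.38% higher. Meis2 of this list, named after its values were seen, was higher on all 4 of its probe sets, with 1 called. On that of highest mean it differed by 0.57 (adjusted p = 0.0633 by limma). The mean log2 level of the 7 genes was 9.75 to 9.91 in null, 10.85 in the heterozygote and 10.27 to 10.60 in wild type arrays. In bulk tissue, fewer cells of a type and less RNA per cell cannot be told apart. Of the other marker lists (choroid plexus, cortical glutamatergic neurons, progenitors, astrocytes and radial glia, oligodendrocyte lineage, microglia, endothelium and red blood cells) the progenitor gene Sox2, higher in null arrays, was the only gene called; the mean level of the microglial list was 7.82 to 8.23 in null, 7.54 in the heterozygote and 7.28 to 7.50 in wild type arrays. Null 2 and wild type 1 had the highest level of Ttr, a choroid plexus transcript, at 13.44 and 13.34, against 7.11 to 11.44 in the other arrays. The SD of log2 values ranged from 1.90 to 2.05 in null, was 2.06 in the heterozygote and ranged from 1.84 to 1.97 in wild type arrays. The part of these differences in the results below was not tested. Values without wild type 1 and null 2, or with the SD as a covariate, are given for Dbp. They are also given beside some results of the other clock, hormone and activity genes.

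Dbp was lower in every null array than in any wild type array on both of its probe sets. On the probe set of highest mean, 1438211_s_at, the log2 values were 7.17, 7.44, 6.71 and 6.84 in null 1 to 4, 8.38 in the heterozygote, and 9.48, 9.10 and 8.38 in wild type 1 to 3. The means were 7.04 ± 0.33 in null (SD, n = 4) and 8.99 ± 0.56 in wild type mice (SD, n = 3), a log2 difference of -1.95, or 3.85-fold lower in null. On 1418174_at the values were 6.82, 6.85, 6.58 and 6.74 in null, 7.09 in the heterozygote, and 7.66, 7.37 and 7.19 in wild type mice, a log2 difference of -0.66 or 1.58-fold lower. The groups were apart on both probe sets, yet the size of the difference was not the same on them. A probe set with the suffix _s_at may match transcripts of more than 1 gene, which bears on the larger value. Over all probe sets, null arrays lay wholly below wild type arrays on 8.85%.

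The animals took nearly the same order on both Dbp probe sets. Wild type 1 was highest, followed by wild type 2, and null 2 was the highest and null 3 the lowest of the null animals. Of the 8 arrays, 6 held the same place on both, and the other two, wild type 3 and the heterozygote, were next to each other. With wild type 1 and null 2 left out for their high Ttr, the difference on the probe set of highest mean was -1.83, and with the array SD as a covariate it was -2.17.

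The heterozygote, whose array played no part in choosing Dbp, lay between the null and wild type means on both probe sets. Its Dbp value equalled that of wild type 3 to 2 decimals on 1438211_s_at and was below all wild type arrays on 1418174_at. The position was 0.31 and 0.48 of the distance from the wild type to the null mean. In a limma fit of all 8 arrays, in which this lone array is assumed to vary like the others, the heterozygote minus wild type difference of Dbp was -0.61 (SE 0.40, adjusted p = 0.382) on 1438211_s_at and -0.32 (SE 0.22, adjusted p = 0.398) on 1418174_at. The wild type arrays that helped to choose Dbp enter this comparison too.

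**Figure D1:**
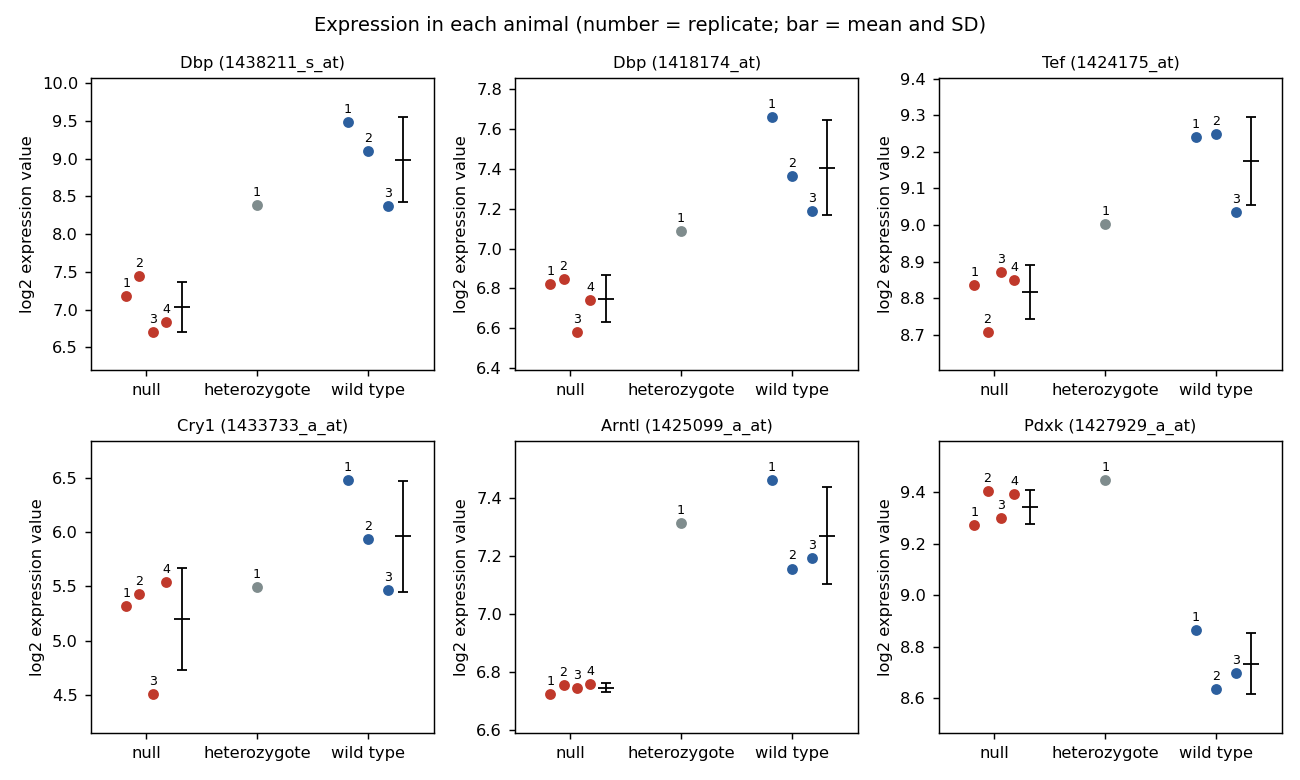
Log2 expression value (vertical axes, a scale of its own in each panel) of each animal by genotype for Dbp on both probe sets, Tef, Cry1, Arntl and Pdxk. Points are animals with their replicate number, and bars give the mean and SD of null (n = 4) and wild type (n = 3) mice. Null and wild type animals are apart on both Dbp panels and overlap on Cry1, where null 4 reads 5.54 and wild type 3 reads 5.46.

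Across the other 9 members, limma called 0 of 22 probe sets lower and 0 higher in null striatum. Among all probe sets 0.453% were called lower and 1.87% higher. In simulated data of the same design, the fit called 1 of 50 log2 changes of 0.5 and 28 of 50 of 1, so smaller differences could be missed. The simulation gave 132 calls in all, beside 204 lower and 840 higher in the data. Its adjustment was thus stricter, and these shares need not hold for the real fit. At an unadjusted p under 0.05, 2 of the 22 passed, both with lower values in null, beside 8836 of all 45037 probe sets. The SAM score passed 2 in neither direction on any of the 22. Of these 22 differences 15 were below 0, with a median of -0.14, beside 62.0% below 0 and a median of -0.08 over all probe sets. Null animals lay wholly below wild type animals on 1 of the 22, a probe set of Tef, and wholly above on 0, beside 8.85% and 7.7% of all probe sets and 16.5% in either direction.

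**Figure D2:**
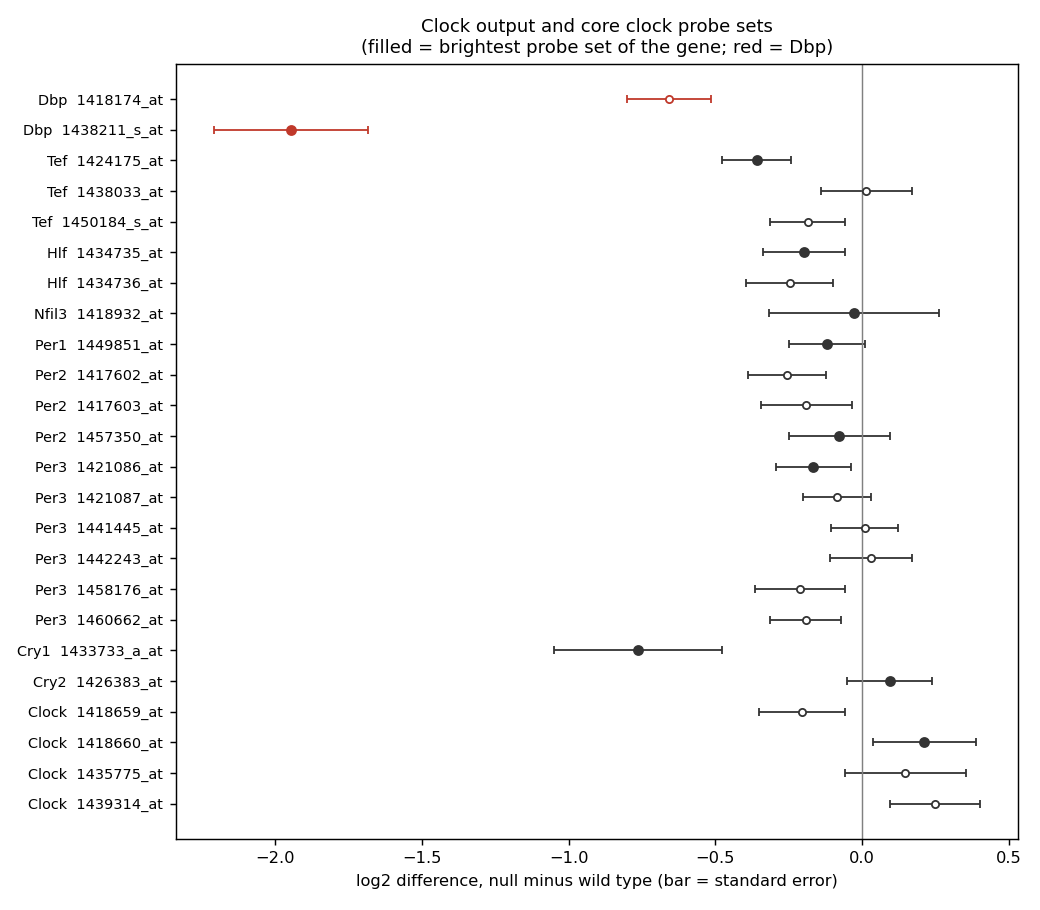
Log2 difference, null minus wild type (horizontal axis), for each of the 24 probe sets of the 10 genes, with its limma standard error as a bar. Filled points are the probe set of highest mean of each gene, and Dbp, in red, was chosen for its low value; its points lie at -1.95 and -0.66, and the other 22 lie between -0.76 and 0.25.

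Tef encodes a PAR bZIP activator related to DBP. On its probe set of highest mean, 1424175_at, the log2 values were 8.84, 8.71, 8.87 and 8.85 in null 1 to 4, 9.003 in the heterozygote, and 9.24, 9.25 and 9.04 in wild type 1 to 3. All null animals lay below all wild type animals, as on 8.85% of all probe sets, with the heterozygote between them. The difference was -0.36 (95% interval -0.62 to -0.10), or 1.28-fold lower, and did not pass (adjusted p = 0.154 by limma). Its other probe sets, 1438033_at and 1450184_s_at, differed by 0.01 and -0.19 (adjusted p = 0.960 and 0.402). Their 95% intervals, -0.33 to 0.36 and -0.47 to 0.10, include 0, so neither settles a sign. Both were dimmer, with means above those of 44.7% and 48.8% of probe sets, against 89.2% for 1424175_at. Null and wild type animals were thus apart on 1424175_at alone.

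Hlf, the remaining PAR bZIP activator gene, differed by -0.20 (95% interval -0.51 to 0.12) on 1434735_at and by -0.25 (95% interval -0.58 to 0.09) on 1434736_at. Null and wild type animals overlapped on both. Values on 1434735_at ranged from 6.11 to 6.49 in null and from 6.31 to 6.65 in wild type mice, and the heterozygote, at 6.09, was below them all.

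Nfil3, whose product represses from the D-box, had log2 values of 6.56, 7.15, 7.20 and 6.03 in null 1 to 4, 6.26 in the heterozygote, and 6.76, 6.38 and 7.14 in wild type 1 to 3. The groups covered much the same range, and null 4 held the lowest value. The difference was -0.03 (95% interval -0.67 to 0.62, adjusted p = 0.958 by limma), and the interval reaches well to both sides of 0. With the SD covariate the difference was -0.51 (adjusted p = 0.612).

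The period genes encode the repressors that rise and fall with the clock. Per1, which also responds rapidly to neuronal activity and hormones, had log2 values of 7.95, 7.84, 7.97 and 7.65 in null, 8.03 in the heterozygote, and 7.94, 7.87 and 8.11 in wild type mice. The groups overlapped, with a difference of -0.12 (95% interval -0.41 to 0.17, adjusted p = 0.584). Per2 differed by -0.26, -0.19 and -0.08 on its 3 probe sets, with adjusted p between 0.304 and 0.792. Per3 differed by between -0.21 and 0.03 on its 6 probe sets, of which 4 were below 0. Null and wild type animals overlapped on every Per2 and Per3 probe set. Of these 9 probe sets 2, both of Per2, had a mean above the median of all probe sets, so most period gene values come from the dim part of the array.

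Cry1 and Cry2 encode the cryptochromes, the partners of PER in repression. Cry1 on its single probe set read 5.32, 5.43, 4.50 and 5.54 in null 1 to 4, 5.49 in the heterozygote, and 6.48, 5.94 and 5.46 in wild type 1 to 3. The groups touched at wild type 3, which lay below null 4, while null 3 and wild type 1 stood at the extremes. The means were 5.20 ± 0.47 in null (SD, n = 4) and 5.96 ± 0.51 in wild type mice (SD, n = 3), a difference of -0.76 (95% interval -1.40 to -0.12) that did not pass (adjusted p = 0.200). With single arrays left out it ranged from -1.01, without wild type 3, to -0.50, without wild type 1, and it was -0.53 without null 3. Its mean was higher than that of 32.6% of probe sets. Cry2 differed the other way, by 0.09 (95% interval -0.23 to 0.41, adjusted p = 0.705), with null 3 at 8.55 and the heterozygote at 8.53 above the 8.01 to 8.24 of all other arrays.

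Clock encodes the histone acetyltransferase-like activator that pairs with BMAL1. Its 4 probe sets differed by -0.21, 0.21, 0.15 and 0.25, and none passed by limma (adjusted p from 0.370 to 0.676; 0 of 4 at an unadjusted p under 0.05). On the probe set of highest mean, 1418660_at, values were 7.27, 7.20, 7.80 and 7.38 in null, 7.16 in the heterozygote, and 7.26, 6.94 and 7.40 in wild type mice. Null 3 was highest on that probe set, and the groups overlapped on all 4. With the SD covariate, differences of the members moved both ways. Among those closer to 0 were 0.08 for 1418660_at, -0.09 for Hlf on 1434735_at and -0.07 for Per3 on 1460662_at. Among those farther from 0 were -0.32 for Clock on 1418659_at and -0.32 for Hlf on 1434736_at. Per3 on 1458176_at, at -0.295, and Per1, at -0.21, were also farther from 0.

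**Figure D3:**
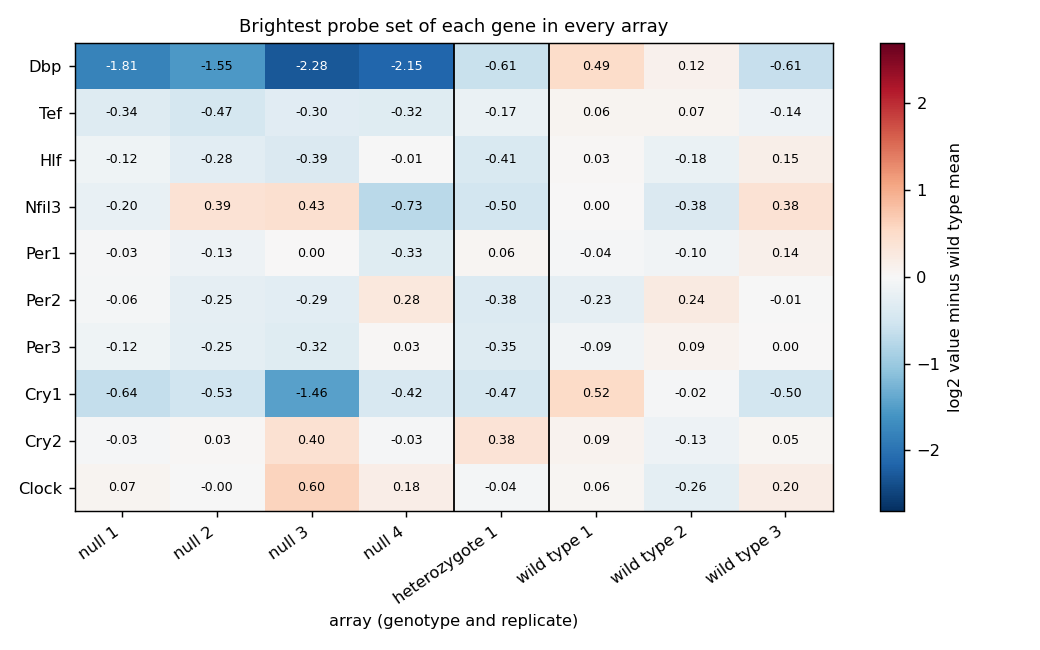
Log2 value minus the wild type mean (colour and number) of the probe set of highest mean of each of the 10 genes (rows) in each of the 8 arrays (columns). Dbp is below the wild type mean by 1.55 to 2.28 in the null arrays, and Cry1 by 0.42 to 1.46, and Nfil3 is below it by 0.73 in null 4.

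Against wild type, the heterozygote gave 0 calls among the 24 probe sets by limma, and 0% of all probe sets were called in either direction. At an unadjusted p under 0.05, 1 of the 24 passed, a probe set of Per3 (1460662_at, difference -0.42), against 8048 of all 45037. Of the 24 differences 19 were below 0, with a median of -0.23, beside a median of -0.10 over all probe sets. The share of all probe sets below 0 was not counted for this comparison, so the 19 cannot be judged against it. The 24 come from 1 heterozygote and include 6 probe sets of Per3 and the 2 of Dbp, a gene chosen with these wild type arrays.

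The profile of Dbp over the 8 arrays, centred on its mean, was compared with that of 16335 other named genes by the root mean square difference in log2 units. The nearest were Rasl11b (0.235), a small GTPase gene, Pcp4l1 (0.278), Nectin3 (0.310), an adhesion protein gene, Fbxo32 (0.322), a ubiquitin ligase subunit gene, and Amn (0.341). Rasl11b read 7.26, 7.20, 7.18 and 6.64 in null 1 to 4, 8.41 in the heterozygote, and 9.87, 9.31 and 8.43 in wild type 1 to 3, the same order of wild type animals as on Dbp, with the heterozygote just below wild type 3, where on Dbp it stood just above. These genes were picked for likeness to Dbp, so their low values in null arrays are no separate result. Nearest to the profile of Dbp with its sign turned were Ddc (0.390), which encodes the enzyme that makes dopamine from its precursor, Calb2 (0.397), which encodes calretinin, and Zfhx4 (0.404). Among the members, Cry1 came nearest, at 0.626 and place 66, followed by Tef at 0.822 and place 757. The other 7 lay between 0.941 and 1.14, at places 5628 to 13398. These places rest on the null and wild type arrays by which Dbp was chosen. They are thus no result separate from the differences of the members given above.

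Beyond the 10 members, 23 other genes of the clock were analysed from a list. Of these, 1 was called higher in null striatum, 0 lower, and 22 did not pass by limma, beside 2.38% called higher and 0.676% lower over all genes with 1 probe set each. At an unadjusted p under 0.05, 9 of the 23 passed, beside 8836 of all 45037 probe sets. The median difference of the 23 was 0.00, beside -0.08 over all genes. Null and wild type animals did not overlap on 5 of the 23, with null below on 3 and above on 2, beside 9.62% and 8.59% of all genes. Of the 23 differences 11 were below 0, beside 60.6% of all genes.

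Pdxk, which encodes pyridoxal kinase and is known in mouse brain as a gene activated by the PAR bZIP factors, was the gene called. On 1427929_a_at it read 9.27, 9.41, 9.30 and 9.39 in null 1 to 4, 9.45 in the heterozygote, and 8.87, 8.64 and 8.70 in wild type 1 to 3. All null animals and the heterozygote were above all wild type animals, opposite in sign to Dbp. The difference was 0.61 (SE 0.12), or 1.53-fold higher (adjusted p = 0.0292), while its other probe sets differed by -0.15 and 0.16 (adjusted p = 0.514 and 0.672). The call was lost without null 1, 2 or 3 (adjusted p = 0.0812, 0.106 and 0.0537), without wild type 2 or 3 (0.115 and 0.118), with the heterozygote among the controls (0.454), after quantile normalization (0.130), with an intensity trend (0.0725), without wild type 1 and null 2 together (0.0861), with the SD covariate (0.117) and with the replicate number as a block (0.0965). It was kept under the other 7 of the 18 alternatives that give an adjusted p. Among them, the fit with the heterozygote as a group of its own repeats the main result by construction (0.0292). Pdxk also passed by the SAM score, which stands outside the 18.

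Arntl, the gene of BMAL1, is named here after its values were seen. Its probe set of highest mean, 1425099_a_at, read 6.72, 6.75, 6.74 and 6.76 in null 1 to 4, 7.31 in the heterozygote, and 7.46, 7.16 and 7.19 in wild type 1 to 3. Null animals lay within 0.04 of each other and below every other array, and the heterozygote lay within the wild type range. The difference was -0.53 (95% interval -0.80 to -0.26), or 1.44-fold lower, just short of the threshold (adjusted p = 0.0569 by limma). Over the 18 alternatives that give an adjusted p it ranged from 0.0202 to 0.178, with 2 below the threshold. Arntl also passed by the SAM score, which is not among the 18. Its other probe set differed by -0.29. Npas2, which encodes a relative of CLOCK, differed by -0.39 (adjusted p = 0.275).

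In the second loop, which controls Arntl, the differences of the repressor genes Nr1d1 and Nr1d2 were -0.35 and -0.71 (adjusted p = 0.158 and 0.315), and those of the activator genes Rora and Rorb were -0.52 and 0.16 (adjusted p = 0.232 and 0.517). Nr1d2 varied widely, reading 5.52, 6.19, 6.30 and 5.99 in null, 7.50 in the heterozygote, and between 5.94 and 7.78 in wild type mice. Wild type 1, highest on Dbp and Cry1, was also highest on Nr1d2. The Nr1d2 difference was -0.17 without wild type 1, -0.23 without wild type 1 and null 2, -1.09 without wild type 2 and -1.35 with the SD covariate. The 4 further repressors and modulators, Bhlhe40, Bhlhe41, Ciart and Timeless, differed by 0.00, -0.14, -0.10 and 0.29, and 0 of them passed even at an unadjusted p under 0.05.

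Among kinase and ubiquitin ligase genes that act on PER and CRY proteins, Gsk3b, a kinase gene, had the largest difference of the 6 measured, 0.87 (95% interval 0.35 to 1.38, adjusted p = 0.0899). All 6 of its probe sets were higher in null, and 1434439_at passed at 1.89-fold (adjusted p = 0.0225). Among output genes Klf10, a zinc finger gene, differed by 1.48 (95% interval 0.52 to 2.44, adjusted p = 0.115). Nampt, which encodes an enzyme of NAD synthesis, differed by 0.91 (95% interval 0.16 to 1.66, adjusted p = 0.193). Of the 7 output genes measured 5 differed above 0 and 2 below. Klf9, named after its values were seen, was lower on all 7 of its probe sets, of which 0 were called by limma. On 1428288_at null animals lay wholly below wild type animals, with a difference of -1.15 (adjusted p = 0.0835). Klf10 read 7.82, 7.92, 8.84 and 6.79 in null, 8.54 in the heterozygote, and 6.13, 7.08 and 5.88 in wild type mice. The heterozygote lay with the higher null animals on it, and null 4 overlapped wild type 2. Nampt differed by 1.41 without wild type 1 (adjusted p = 0.00826 by limma) and by 1.44 without wild type 1 and null 2 (0.0303). It differed by 0.56 without wild type 2 (0.504) and by 0.55 with the SD covariate (0.779). That covariate also gave 0.48 for Gsk3b on its probe set of highest mean and 1.01 for Klf10.

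**Figure D4:**
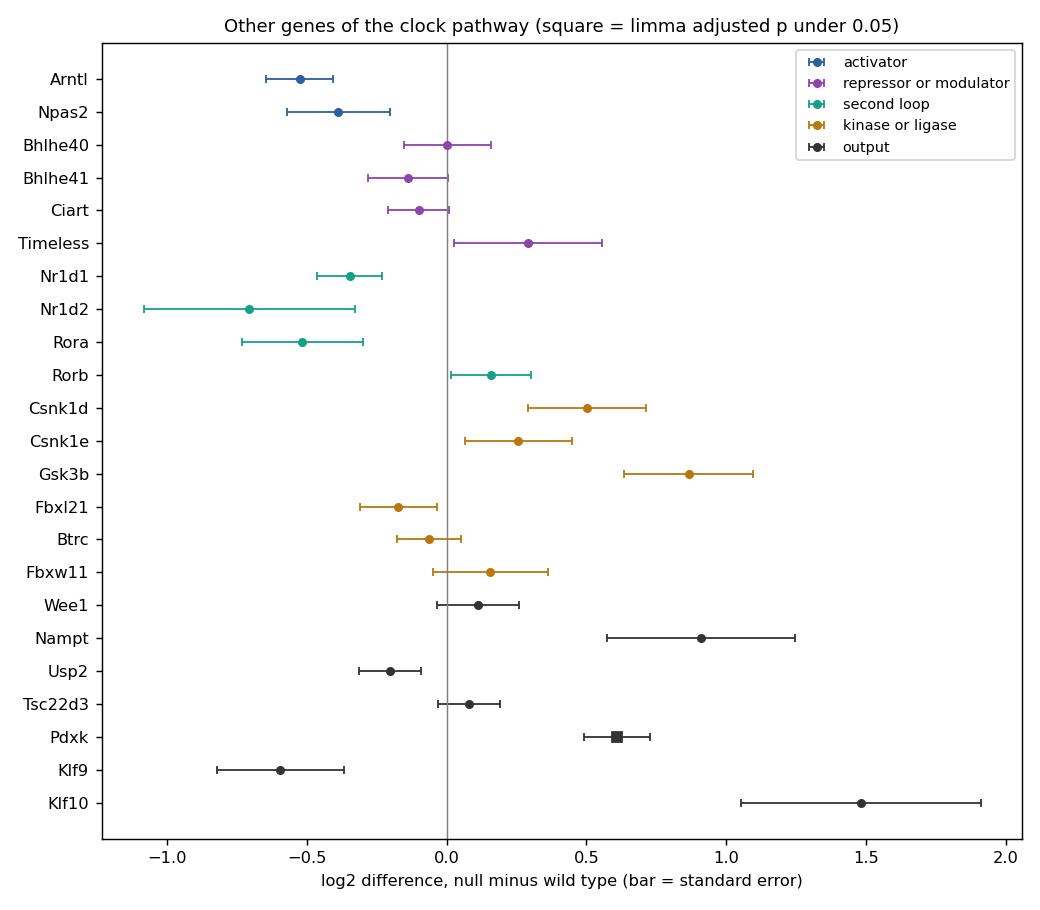
Log2 difference, null minus wild type (horizontal axis), of the 23 other clock pathway genes with the limma standard error as a bar, coloured by role. The square is Pdxk, at 0.61 the gene with an adjusted p under 0.05; both activators lie below 0, at -0.53 and -0.39, and Klf10 lies farthest to the right at 1.48.

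Genes that respond to glucocorticoid hormone or to neuronal activity were listed because Per1 responds to both signals. Of 7 glucocorticoid-responsive genes 0 were called by limma and 3 had an unadjusted p under 0.05, and of 6 activity-induced genes 0 were called and 3 had an unadjusted p under 0.05. Over all genes 0.676% were called lower and 2.38% higher, and 8836 of 45037 probe sets had an unadjusted p under 0.05. Differences went both ways, with 3 below and 4 above 0 in the first list (median 0.08) and 3 below and 3 above 0 in the second (median -0.05). The largest differences were 0.95 for Ddit4 and 0.75 for Sgk1 in the first list (adjusted p = 0.215 and 0.322), and 1.25 for Fos and 1.08 for Dusp1 in the second (adjusted p = 0.179 and 0.127). Below 0, the largest were -0.59 for Klf9 (adjusted p = 0.207) and -0.60 for Arc (adjusted p = 0.0620), both named after their values were seen, and null animals lay wholly below wild type animals on Arc. Fos read 7.76, 7.85, 8.42 and 6.54 in null, 7.98 in the heterozygote, and 7.11, 5.57 and 6.51 in wild type mice. Null 4 had the lowest value of the null animals on Fos, Dusp1, Ddit4, Sgk1 and Fkbp5, and the highest on Nr4a1, Arc, Errfi1 and Zbtb16, while on Junb, Egr1, Klf9 and Tsc22d3 it was neither. Without null 4, Fos, Dusp1 and Ddit4 of these lists, and Klf10, passed the threshold (adjusted p = 0.0379, 0.0216, 0.0353 and 0.0246 by limma). As null 4 was the lowest null animal on each, its omission was bound to raise their null means. Without null 1, 2 or 3 instead, Ddit4 did not pass (adjusted p = 0.316, 0.428 and 0.397 by limma), nor did Klf10 (0.203, 0.253 and 0.193). The omission of null 4 was not confined to these genes in its effect. Leaving out null 4 gave 289 probe sets called lower and 1713 higher of all 45037, beside 204 and 840 with it. With the SD covariate the differences were 0.29 for Fos, 0.36 for Dusp1, 0.31 for Ddit4 and -0.20 for Sgk1.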

How the data were processed

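The authors deposited log2 values, 1 for each probe set and array, which they computed by RMA from Affymetrix scans, per the labels' protocols and the design text given for the series. RMA removes background, gives all arrays 1 distribution of probe intensities and combines the probes of a set robustly. The version of RMA and the set of arrays it was run on were not stated. The number of arrays limits the precision. Array medians lay between 6.21 and 6.35. Each array is a different mouse, per the series' design text, so errors cover the spread between animals.

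Null and wild type arrays were compared with limma 3.58.1 (lmFit, eBayes) in R 4.3.3 over all 45037 probe sets, with Benjamini-Hochberg adjustment over all of them and a threshold of 0.05. The 95% intervals come from the same fit. The heterozygote was compared in a fit of all 8 arrays. Of the probe sets, 34945 carry 1 gene symbol, 932 several and 9160 none; symbols were updated through the RefSeq gene table of GRCm38.p6, which lacked 204 of those with 1 symbol. A gene is represented by its probe set of highest mean over null and wild type arrays. The fit was tested on simulated data of the same design, with 50 changed probe sets at each size of change. It called 1 of the 50 at a log2 change of 0.5, 28 at 1, 47 at 1.5 and 46 at 2. Of 132 calls in all 10 were false. The data gave 204 calls lower and 840 higher, so the adjustment was stricter in the simulation than in the data. A probe set that was not called may thus still differ.

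The members and lists were chosen with earlier results of these data known. Genes named are all 10 members, Bcl11b, from the clock list those past the threshold and the 4 of largest difference, from the hormone and activity lists those past the threshold and the 2 of largest difference, and the 5 genes most like Dbp and the 3 most like its sign-turned profile. Genes that other sentences name were chosen for their role or, where said, after their values were seen. Alternatives left out each array, moved the heterozygote to the controls or to a group of its own, took the replicate number as a block, changed the normalization, filter, prior, weights or adjustment, or used the SAM score. Added after seeing the data were a covariate, the SD of each array, and a fit lacking wild type 1 and null 2. Python 3.11.15 with matplotlib 3.10.9 drew the figures.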

Additional observations from a re-analysis of the deposited data

Results flagged for a closer look

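In 3 of the 47 sets of null values examined, for the probe sets of the clock members and the other clock pathway genes, the gap between 1 animal and the nearest of the others took up more of the range of the 4 than Dixon's limit, which chance passes in about 1 of 20 sets. For Tef on 1450184_s_at this was null 4, with 6.28 against 6.12 to 6.14 in the other null animals (gap 0.852 of the range). Null 4 also stood apart for Per3 on 1421087_at, with 5.91 against 5.74 to 5.76 (0.921). For Cry2 on 1426383_at it was null 3, with 8.55 against 8.11 to 8.18 (0.844).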

How the results depend on the processing

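The Dbp difference kept its sign under all alternatives, from -2.25 to -1.61 on 1438211_s_at and from -0.77 to -0.52 on 1418174_at. Of the 22 other member probe sets, 0 were called higher under any alternative, and 1 was called lower, Cry1 (-0.88, adjusted p = 0.0332), with the replicate block. The deviations of same-numbered null and wild type animals from their group means had r = -0.25, -0.31 and -0.17. With so few pairs these values cannot tell whether the numbers pair the animals. Null 4 has no wild type animal of its number, so the block gives the differences found without null 4. In the heterozygote 0 were called under every alternative run. Of the 23 other clock genes, the count of 1 higher became 0 with the heterozygote among the controls, the intensity trend, quantile normalization or the SD covariate, 2 with the SAM score or the replicate block and 4 with array weights, and ranged from 0 to 2 with single arrays left out; the count of lower genes, 0, became 1, Arntl, with the SAM score, array weights or quantile normalization. Nampt was called without wild type 1 (adjusted p = 0.00826), and without wild type 1 and null 2 together (0.0303), where Pdxk was not. With the block Pdxk was not called either (0.0965), and the 2 genes called were Klf10 (0.0154) and Gsk3b (0.0400). Over all probe sets the counts lower and higher, 204 and 840, were 62 and 412 without those arrays, 96 and 110 when the heterozygote counted as a control, 93 and 189 with the SD covariate, 124 and 548 after median centring, 318 and 821 after quantile normalization, 346 and 1455 by SAM, 212 and 1696 with the block, 965 and 2686 with array weights, and ranged from 76 to 443 and from 210 to 1733 with single arrays left out. The cause was not tested.

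Differences near 0 turned sign without being called. Tef on 1438033_at was -0.11 with array weights, -0.069 with the block and -0.069 to 0.118 with single arrays left out. Nfil3 was 0.033 after median centring, 0.097 when the heterozygote joined the controls, 0.208 with the block and -0.219 to 0.208 with single arrays left out. With the SD covariate Per2 was 0.056 on 1417603_at and 0.244 on 1457350_at, Per3 0.002 on 1421086_at, Cry2 -0.076 and Sgk1 -0.198. With the heterozygote among the controls Per2 on 1457350_at was 0.016 and Cry2 -0.002, and quantile normalization gave Cry2 -0.071. Per3 was -0.007 on 1441445_at with array weights, and with the block -0.038 there and -0.059 on 1442243_at. With single arrays left out, Per2 on 1457350_at ranged from -0.199 to 0.042, Per3 from -0.038 to 0.046 on 1441445_at and from -0.059 to 0.102 on 1442243_at, Cry2 from -0.011 to 0.136 and Clock on 1435775_at from -0.041 to 0.267.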
